A study of Danio rerio with 9 samples.

Results

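The genes described here are those of fatty acid oxidation and of peroxisome formation in the zebrafish kidney. They were taken from the gene table by symbol: every gene whose name begins with *acad*, *acox*, *acaa*, *hadh*, *ehhadh*, *cpt1*, *cpt2*, *eci*, *ech* or *acsl*, or with *pex* and a number. That gave 55 of the 30628 genes in the table. RNA was taken from whole kidneys of 12-month-old wild-type WIK zebrafish and sequenced in 4 male and 5 female libraries, so that sex is the only difference the labels give between the groups. The female libraries are called F1, F2, F3, F4 and F6 and the male ones M1, M2, pkd1M1 and pkd1M4, after their columns in the table. The names of pkd1M1 and pkd1M4 hold pkd1 beside wt, while the labels give every fish as wild type. The labels do not state how many kidneys went into a library, so a p-value measures the spread between these libraries.

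Fatty acids are broken down by beta-oxidation, in which a chain bound to coenzyme A is shortened in repeated rounds of dehydrogenation, hydration, a second dehydrogenation and cleavage. Mitochondria carry this out on most chains and use the electrons to make ATP, on which the proximal tubule of the kidney depends heavily. Peroxisomes shorten very long and branched chains, with an oxidase that makes hydrogen peroxide in the first step. Peroxins are the proteins that build the organelle and import its enzymes.

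Total counts were between 24902978 and 52986838 in the male libraries and between 30714070 and 38758188 in the female ones. Genes encoded in mitochondria took 7.64% to 13.8% of the counts in males and 4.13% to 7.76% in females. Markers of the proximal tubule, a segment rich in both organelles, were summed in CPM (counts scaled to library size). The sums were 2108 to 3048 CPM in males and 1339 to 3837 in females. None of the 9 proximal tubule markers tested differed by sex at an adjusted p under 0.05, and *aqp8b* was at 0 in every library. All 5 genes listed as distal tubule markers were higher in males at that threshold. Their sums were 1069 to 1778 CPM in males and 379 to 891 in females. Among them was *trpm7*, whose place in the nephron was not examined, so the list may not be distal alone. Of 5 myeloid markers, 2 were higher in females, with sums of 1912 to 3706 CPM in males and 3122 to 5366 in females. Of 7 lymphoid markers, 1 was higher in females, with sums of 22.9 to 64.6 CPM in males and 63.7 to 124 in females. Of 7 oocyte markers, 3 were higher in females, and their sum reached 1695 CPM in F1. The liver markers, 8 in number, reached 1657 CPM in pkd1M4, and none was past the threshold. The 3 adipose markers found stayed at 0 in males and at or below 0.501 CPM in females. The part of these markers in the results was not tested, and in whole kidneys fewer cells of a type and less RNA per cell cannot be told apart.

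Males and females were compared to find which of these genes differ by sex, with edgeR's quasi-likelihood test over all genes that passed a filter on low counts. A gene was called at a Benjamini-Hochberg adjusted p under 0.05 together with an absolute log2 fold change above 1.5, and the count at the adjusted p alone is given beside it. Of the 55 genes, 51 were tested. *acox3* and *ehhadh*, both enzymes of peroxisomal beta-oxidation, passed both thresholds and were higher in males, against 3.48% of all 22148 genes tested that passed in that direction. No member passed both in the other direction, as 3.06% of all genes did. The count of 2 is 3.92% of the members, which is near that background.

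A further 6 members were higher in males at the adjusted p alone: *acsl4b*, *echs1*, *acad8*, *acaa1*, *pex5* and *pex19*. With *acox3* and *ehhadh* they make 8 of 51, or 15.7%, where 7.02% of all genes were higher in males and 13.2% passed in either direction. No member was higher in females at that threshold, where 6.20% of all genes were. With the filter set to at least 10 counts in every library, 8 of 49 members passed the adjusted p, all higher in males. Of all genes 19.9% did so in either direction under that filter. The fitted log2 fold change of male over female was above 0 in 39 of 51 members, or 76.5%, and in 48.2% of all genes. The median over the members was 0.24, beside -0.03 over all genes, and it was also 0.24 over the 49 tested members other than *acox3* and *ehhadh*. Without F6 it was 0.39 and without pkd1M1 0.17. In 9 members the lowest male library exceeded the highest female one, and in none was the reverse true, where 8.42% and 8.06% of all genes were separated in these directions.

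Part of these counts rested on single libraries. Without F6 the members at the adjusted p alone numbered 12 of 52, all higher in males, against 15.4% of all genes in either direction. Without F2 they numbered 5 of 51, again all higher in males, against 9.07% in either direction. Without pkd1M1 they numbered 6 of 51, all higher in males, against 8.51% in either direction. Without the libraries named with pkd1, which leaves 2 males, 3 members remained past the adjusted p threshold (*acox3*, *ehhadh* and *acsl4b*). Of all genes 3.60% passed in either direction in that fit.

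**Figure D1:**
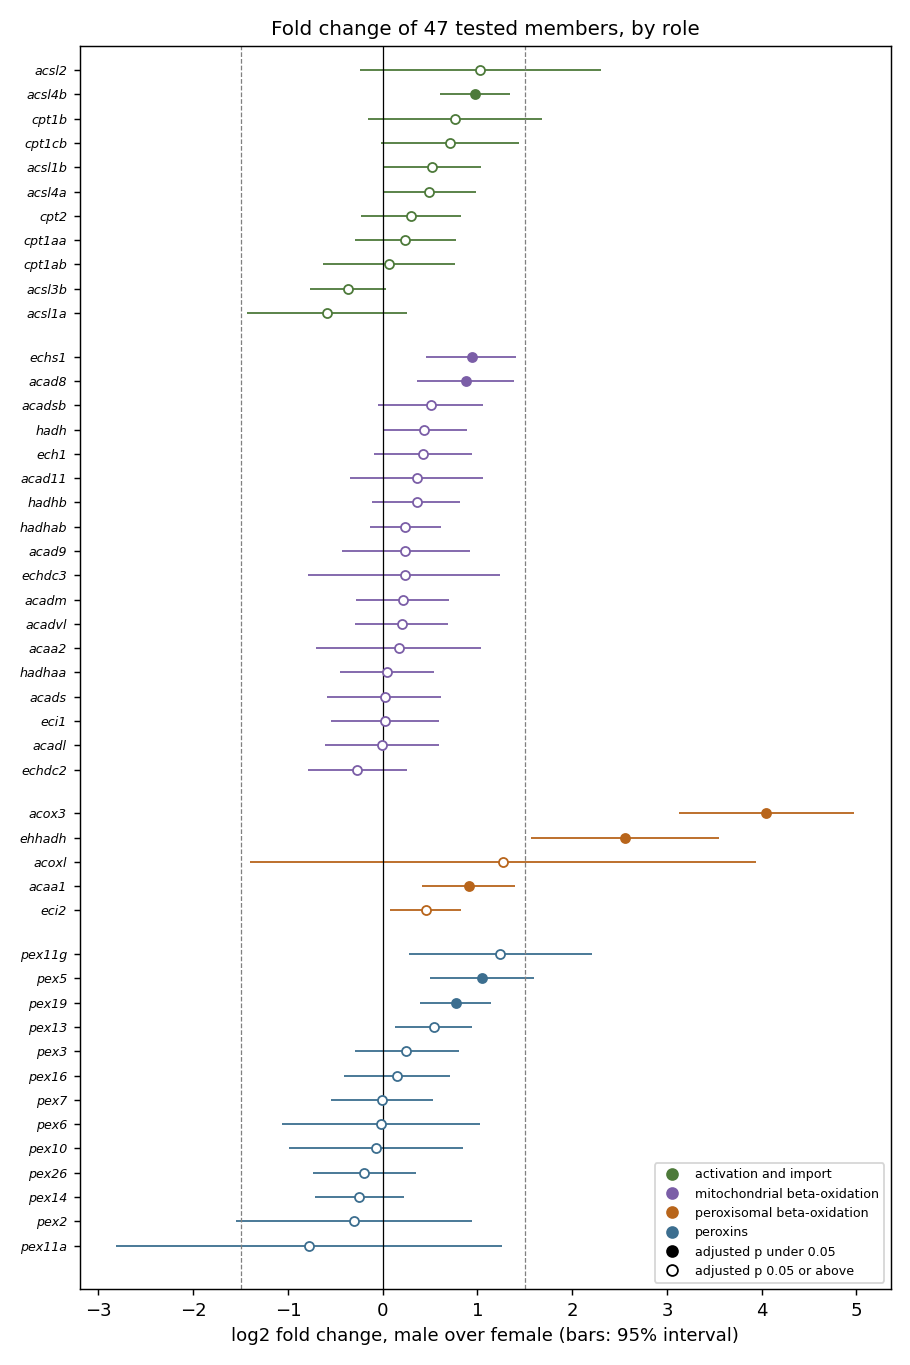
The log2 fold change of male over female is plotted on the horizontal axis for 47 of the 51 tested members, grouped by role, with bars for the 95% interval, filled points for an adjusted p under 0.05 and dashed lines at 1.5 in either direction. The filled points all lie to the right of 0, and *acox3* at 4.05 and *ehhadh* at 2.56 alone among them lie beyond the dashed line.

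The peroxisomal enzymes held the largest sex differences among the 4 roles. All 6 listed were tested, and the median log2 fold change was 1.09. At the adjusted p 3 were higher in males (*acox3*, *ehhadh* and *acaa1*), 50.0% beside 7.02% of all genes. The mammalian counterpart of *acox3* encodes an acyl-CoA oxidase that starts the oxidation of branched chains. *acox3* lies on chromosome 7 at 61764040 to 61806065, in GRCz11 by the methods of the study and GRCz10 by the submitters' processing notes. It was at 398, 436, 753 and 289 CPM in M1, M2, pkd1M1 and pkd1M4, and at 26.1, 18.2, 52.6, 15.0 and 29.8 CPM in F1, F2, F3, F4 and F6. The groups were far from overlapping, with the lowest male, pkd1M4, above the highest female, F3. The male mean was 469 ± 199 CPM (SD, n = 4) and the female mean 28.3 ± 14.8 CPM (SD, n = 5). Males exceeded females by 4.05 (SE 0.42) on the log2 scale, a 16.5-fold difference with a 95% interval of 8.76 to 31.2, at an adjusted p of 0.000409 in edgeR's quasi-likelihood test. *acox3* ranked 66 by p-value among all genes tested.

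*ehhadh*, on chromosome 9 at 12428226 to 12443726, encodes the bifunctional enzyme that carries out the hydration and second dehydrogenation in peroxisomes. Its level was 551, 711, 1366 and 454 CPM in M1, M2, pkd1M1 and pkd1M4, and 122, 70.2, 175, 61.4 and 226 CPM in F1, F2, F3, F4 and F6. Every male lay above every female, and pkd1M1 stood well above the other males. Means of 771 ± 411 CPM (SD, n = 4) and 131 ± 70.1 CPM (SD, n = 5) gave a log2 fold change of 2.56 (SE 0.45). This is a 5.88-fold difference with a 95% interval of 2.96 to 11.7 and an adjusted p of 0.0049. Both genes followed the same order at their extremes among males, with pkd1M1 highest and pkd1M4 lowest. Without the libraries named with pkd1 the log2 fold changes were 3.88 for *acox3* (adjusted p 0.00539) and 2.26 for *ehhadh* (adjusted p 0.0385).

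*acaa1*, on chromosome 24 at 20325312 to 20332460, encodes the thiolase that cleaves the chain in peroxisomes. It was at 83.1, 59.3, 125 and 68.1 CPM in M1, M2, pkd1M1 and pkd1M4, and at 41.0, 41.9, 43.3, 42.8 and 54.6 CPM in F1, F2, F3, F4 and F6. The female levels were close together apart from F6, the males spread more widely, and the groups did not overlap. Its fitted difference was 0.91 on the log2 scale (SE 0.22, adjusted p 0.0236). The adjusted p was no longer under 0.05 without pkd1M1, M1, F1, F2 or F3, reaching at most 0.0584, and the log2 fold change was 0.65 without pkd1M1.

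Of the peroxisomal enzymes that did not pass the test, *eci2*, an isomerase for unsaturated chains, was at 117, 98.9, 111 and 85.3 CPM in M1, M2, pkd1M1 and pkd1M4 and at 64.9, 68.6, 80.6, 67.9 and 93.7 CPM in F1, F2, F3, F4 and F6. Only F6 reached into the male range. Its log2 fold change was 0.46, with a 95% interval of 0.08 to 0.83 (adjusted p 0.112). *acoxl*, a gene related to the oxidases, was at or below 4.79 CPM in every library.

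**Figure D2:**
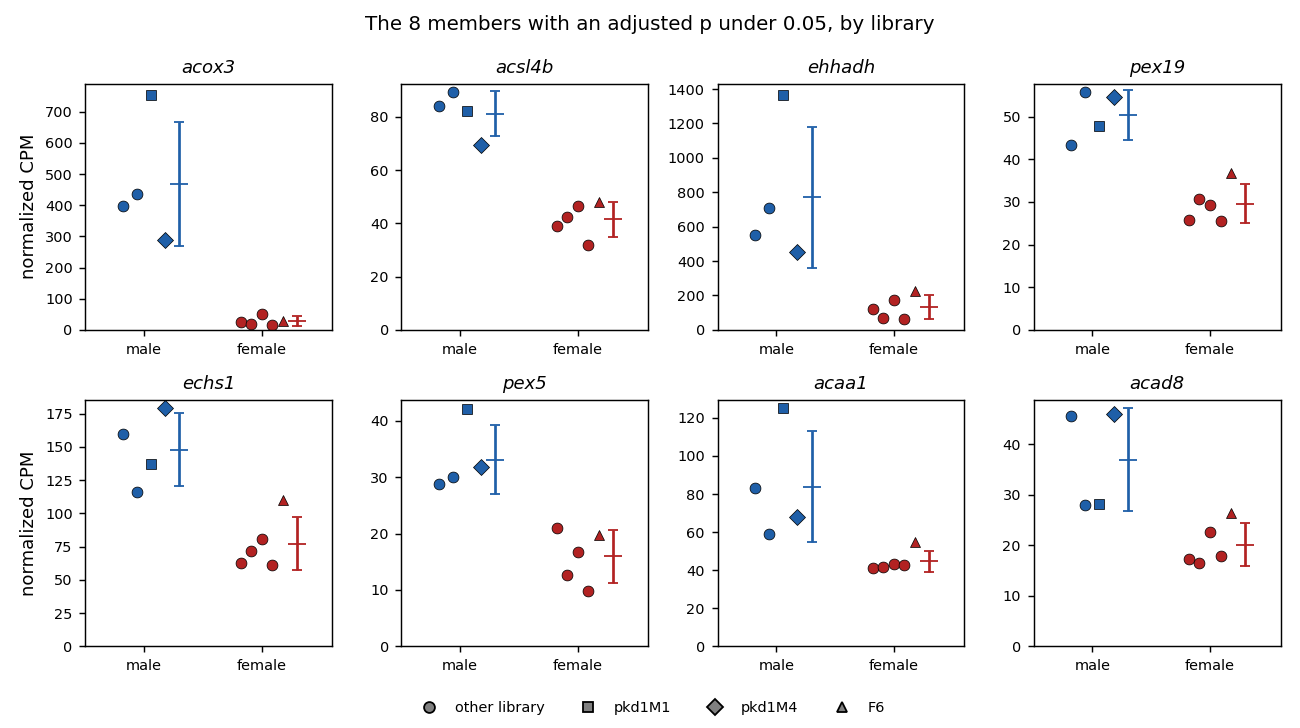
Normalized CPM is plotted for each library in the 8 members with an adjusted p under 0.05, males in blue and females in red, with the mean and SD beside the points and separate symbols for pkd1M1, pkd1M4 and F6. In each panel the lowest male point lies above the highest female point, and the gap is widest for *acox3*, where males start at 289 CPM and females end at 52.6 CPM.

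Summed over the 6 peroxisomal enzymes, the level was 1008 to 2437 CPM in males and 246 to 484 CPM in females. Without *acox3* and *ehhadh* the sum of the other 4 was 248 to 317 CPM in males and 161 to 228 CPM in females, again without overlap. The sums of the 18 peroxins did not overlap either, at 240 to 278 CPM in males and 182 to 224 CPM in females. Those of activation and import did, at 506 to 544 CPM in males and 323 to 538 CPM in females, with F6 the highest female.

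Activation and import were represented by 13 genes, of which 11 were tested, 1 was higher in males at the adjusted p and none in females. That is 9.09%, near the 7.02% of all genes higher in males. Over the 11 the median log2 fold change was 0.49, with a range of -0.59 to 1.03. Long-chain acyl-CoA synthetases, the *acsl* genes, join a fatty acid to coenzyme A, and carnitine palmitoyltransferases move the chain into mitochondria. *acsl4b*, on chromosome 5 at 23518399 to 23581355, is a counterpart of a mammalian synthetase that prefers polyunsaturated chains such as arachidonic acid. Its level was 83.9, 89.3, 82.1 and 69.6 CPM in M1, M2, pkd1M1 and pkd1M4, and 39.1, 42.4, 46.4, 31.7 and 48.1 CPM in F1, F2, F3, F4 and F6. Both groups were tight and apart from each other. Males were higher by 0.97 on the log2 scale (SE 0.17, adjusted p 0.00476), and the adjusted p stayed under 0.05 with any 1 library left out. Its span, introns included, shares 5028 bases with *cwc15*, and whether their transcripts share bases was not examined.

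The duplicate of this gene, *acsl4a*, averaged 48.2 ± 9.58 CPM (SD, n = 4) among males and 34.4 ± 9.08 CPM (SD, n = 5) among females, with a log2 fold change of 0.49 (adjusted p 0.191). *acsl1b*, a counterpart of the main synthetase of liver and fat in mammals, was at 99.9, 96.6, 116 and 149 CPM in M1, M2, pkd1M1 and pkd1M4. In F1, F2, F3, F4 and F6 it was at 63.0, 80.8, 61.6, 73.5 and 123 CPM. Only F6 among the females reached the male range. This gave a log2 fold change of 0.52, with a 95% interval of 0.00 to 1.04 (adjusted p 0.186), and without F6 it was 0.73 (adjusted p 0.0287). Its duplicate *acsl1a* had a fitted value of the other sign, -0.59 with a 95% interval of -1.43 to 0.26 (adjusted p 0.381), and a lower level in pkd1M1, 4.53 CPM, than in any other library. *acsl3b* was at 33.4 to 46.2 CPM in males and 43.7 to 66.8 CPM in females (log2 fold change -0.37, adjusted p 0.235).

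*cpt1ab*, *cpt1b* and *cpt1aa* encode forms of the enzyme that makes acylcarnitine at the outer mitochondrial membrane, the step that controls entry of chains in mammals. *cpt1b*, the form of muscle in mammals, was at 77.9, 70.4, 98.9 and 85.9 CPM in M1, M2, pkd1M1 and pkd1M4 and at 37.0, 35, 24.4, 33.1 and 116 CPM in F1, F2, F3, F4 and F6. F6 stood above all males, and the other 4 females lay below all males. The log2 fold change was 0.76, with a 95% interval of -0.15 to 1.68 (adjusted p 0.279), and without F6 it was 1.36 (adjusted p 0.00172). Its span shares 5803 bases with another gene, *BX276107.1*. *cpt1ab* was at 88.9, 55.5, 76.0 and 47.5 CPM in those males and at 42.2, 87.9, 48.1, 42.5 and 99.0 CPM in those females. The groups overlapped over most of their range, and the log2 fold change was 0.07 with a 95% interval of -0.63 to 0.76 (adjusted p 0.926), below 0 or at 0.00 in 5 of the 9 fits with a library left out. *cpt2*, which releases the chain inside the mitochondrion, had a log2 fold change of 0.30 (adjusted p 0.492) and *cpt1aa* 0.24 (adjusted p 0.594). For *cpt1cb*, at 3.62 to 12.1 CPM over the libraries, it was 0.71 (adjusted p 0.196).

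Of the 18 mitochondrial enzymes, all tested, *echs1* and *acad8* were higher in males at the adjusted p and none in females. That is 11.1%, where 7.02% of all genes were higher in males and 13.2% passed in either direction. The median log2 fold change was 0.23, with a range of -0.27 to 0.94, and 16 of the 18 fitted values were above 0. *echs1*, on chromosome 13 at 24579108 to 24582236, encodes the hydratase for short and medium chains, which also serves the breakdown of branched amino acids. Its level was 160, 116, 137 and 179 CPM in M1, M2, pkd1M1 and pkd1M4 and 62.5, 71.7, 81.0, 61.0 and 110 CPM in F1, F2, F3, F4 and F6. M2 was the lowest male and F6 the highest female, and they were close to meeting. Males were higher by a log2 fold change of 0.94 (SE 0.21, adjusted p 0.017), with an adjusted p of 0.0511 without pkd1M4.

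*acad8*, on chromosome 15 at 19335646 to 19348383, encodes isobutyryl-CoA dehydrogenase of valine breakdown in mammals and carries the family's name without being a fatty acid dehydrogenase. It was at 45.6, 27.9, 28.2 and 45.9 CPM in M1, M2, pkd1M1 and pkd1M4 and at 17.2, 16.4, 22.7, 17.9 and 26.3 CPM in F1, F2, F3, F4 and F6. Males formed a high and a low pair, and the low pair lay just above F6. With a log2 fold change of 0.88 *acad8* was past the threshold (SE 0.23, adjusted p 0.0329), but the adjusted p was above 0.05 without pkd1M4, M1, F1, F2, F3 or F4, at most 0.0999.

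The chain-length dehydrogenases did not pass the test. *acadm*, for medium chains, on chromosome 2 at 26470070 to 26476150, was at 472, 384, 580 and 521 CPM in M1, M2, pkd1M1 and pkd1M4 and at 392, 380, 393, 312 and 640 CPM in F1, F2, F3, F4 and F6. *acadvl*, for very long chains, on chromosome 7 at 20298333 to 20333524, was at 258, 248, 251 and 186 CPM in those males and at 201, 173, 168, 170 and 316 CPM in those females. In both genes F6 was above every other library and the ranges of the sexes overlapped. The log2 fold changes were 0.21 for *acadm*, with a 95% interval of -0.28 to 0.70 (adjusted p 0.622), and 0.20 for *acadvl*, with a 95% interval of -0.29 to 0.69 (adjusted p 0.641). *acads* and *acadl*, for short and long chains, had fitted values of 0.02 and -0.01 with adjusted p-values of 0.978 and 0.991.

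*hadhb*, on chromosome 20 at 47927720 to 47953524, and *hadhaa* and *hadhab* encode the subunits of the mitochondrial trifunctional protein, which carries out the last steps on long chains. *hadhb* was at 221, 178, 242 and 209 CPM in M1, M2, pkd1M1 and pkd1M4 and at 145, 149, 139, 145 and 252 CPM in F1, F2, F3, F4 and F6. The females other than F6 were close together and below all males. Over all libraries the log2 fold change was 0.36, with a 95% interval of -0.11 to 0.82 (adjusted p 0.323), and without F6 it was 0.56 (adjusted p 0.0324). *hadhaa* shares 478 bases of its span with *hadhb*, and its fitted value was 0.05 (adjusted p 0.927), with 0.24 (adjusted p 0.417) for *hadhab*. *hadh*, for shorter chains, had a log2 fold change of 0.44 (adjusted p 0.19). The other 8 mitochondrial members lay between -0.27 for *echdc2* and 0.51 for *acadsb* on the log2 scale.

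F6 bore on this role as a whole. It was the highest of the 5 females in 12 of the 18 mitochondrial members and in 26 of the 51 tested members, against 23.1% of all genes tested. Summed over the 18 mitochondrial genes, F6 reached 2156 CPM, while the other females lay between 1454 and 1487 CPM and the males between 1680 and 2172 CPM. The same library had the highest proximal tubule sum of all 9 libraries, 3837 CPM, and the part of tubule content in its levels was not tested. Without F6, *acsl1b*, *cpt1b*, *eci2* and *hadhb* joined the members at an adjusted p under 0.05, and all 8 others stayed past it.

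**Figure D3:**
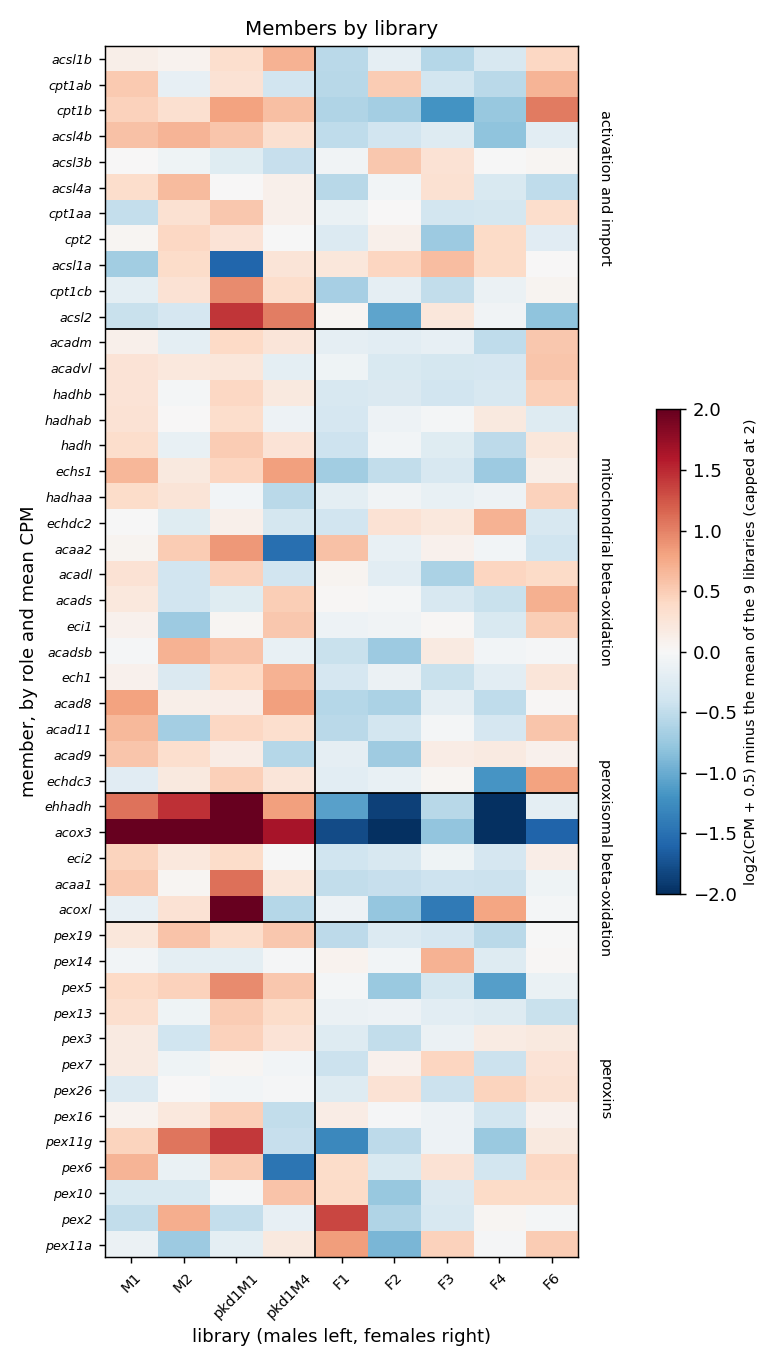
Each of 47 tested members is a line and each library a column, males left and females right, coloured by log2(CPM + 0.5) minus that gene's mean over the 9 libraries, red for high and blue for low. The contrast between the sexes is strongest for *acox3* and *ehhadh*, and the F6 column is red through much of the mitochondrial block, where its summed level was 2156 CPM.

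Peroxins were divided. Of 18 listed, 16 were tested, 2 were higher in males at the adjusted p and none in females. That is 12.5%, where 7.02% of all genes were higher in males and 13.2% passed in either direction. The median log2 fold change was 0.01. *pex5*, on chromosome 16 at 12064576 to 12097558, encodes the receptor that carries most matrix enzymes into the organelle by their carboxyl-terminal signal. It was at 28.7, 30.0, 42.0 and 31.7 CPM in M1, M2, pkd1M1 and pkd1M4 and at 20.9, 12.7, 16.8, 9.84 and 19.7 CPM in F1, F2, F3, F4 and F6. All males lay above all females. Their log2 fold change was 1.05 (SE 0.25, adjusted p 0.0206), and the adjusted p was above 0.05 without pkd1M1 or F2, at most 0.0683.

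*pex19*, on chromosome 2 at 37134281 to 37146572, encodes the chaperone that delivers proteins to the peroxisomal membrane. It was at 43.4, 55.7, 47.7 and 54.6 CPM in M1, M2, pkd1M1 and pkd1M4 and at 25.7, 30.6, 29.3, 25.5 and 36.9 CPM in F1, F2, F3, F4 and F6. The groups did not overlap. Male levels were higher by 0.77 on the log2 scale (SE 0.17, adjusted p 0.0145), and the gene passed with any 1 library left out. The span of *pex19* shares 3762 bases with *tspan37*, with the same reservation as for *acsl4b*.

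*pex3*, the docking partner of *pex19*, and *pex16*, which also acts in membrane protein insertion, had log2 fold changes of 0.25 (adjusted p 0.579) and 0.15 (adjusted p 0.775). *pex13* and *pex14* form the docking site of *pex5*. *pex13* showed no overlap between the sexes but a log2 fold change of 0.54 with an adjusted p of 0.0808, and it passed only without M2 (0.0498). *pex14* was at 31.1, 28.3, 28.1 and 31.9 CPM in M1, M2, pkd1M1 and pkd1M4 and at 33.9, 31.0, 52.8, 26.8 and 32.7 CPM in F1, F2, F3, F4 and F6. F3 stood apart, the rest of the libraries lay in 1 narrow range, and the log2 fold change was -0.25, with a 95% interval of -0.71 to 0.22 (adjusted p 0.517).

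*pex7*, the receptor for the other import signal, had a fitted value of -0.01 (adjusted p 0.989). The ubiquitin ligase genes *pex2* and *pex10*, which act on the receptor for recycling, had fitted values of -0.30 (adjusted p 0.795) and -0.07 (adjusted p 0.939). *pex6*, an ATPase gene of receptor export, had -0.02 (adjusted p 0.989), and its anchor *pex26* had -0.20 (adjusted p 0.681). *pex11g*, of the family that elongates and divides peroxisomes, came closest among the rest, at 5.94 to 23.1 CPM in males and 3.12 to 9.72 CPM in females. Its log2 fold change was 1.24 (SE 0.44, adjusted p 0.0907), and it passed without pkd1M4, at an adjusted p of 0.0431, and in DESeq2. Its relative *pex11a* had a fitted value of -0.78 with a 95% interval of -2.81 to 1.26 (adjusted p 0.662) and was at or below 1.56 CPM in every library.

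The 4 members that did not pass the filter on low counts were *acsl3a*, *acsl5*, *pex5la* and *pex5lb*. Their counts were 0 to 28, 0 to 165, 0 to 34 and 0 to 12 over the 9 libraries, and for *acsl5* the 165 counts lay in F1.

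Genes that work beside the members were counted over 7 lists, of which 128 genes were in the table and 120 were tested. At the adjusted p alone 29 were higher in males and 2 in females, 25.8% together against 13.2% of all genes. Both thresholds were passed by 16 (13.3%, against 6.54% of all genes). The lists were chosen with earlier results of these data known, so these shares are description only. The median log2 fold change over the 120 was 0.34. Of the 31 genes past the adjusted p, 17 stayed past it with any 1 library left out and 12 without the libraries named with pkd1. The 14 that missed it without at least 1 of the 9 libraries were *slc16a9a*, *decr2*, *hacl1*, *mcee*, *hao1*, *agxta*, *far1*, *slc27a1a*, *fabp2*, *oxct1a*, *elovl2*, *fads2*, *esrra* and *prkaa1*.

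**Figure D4:**
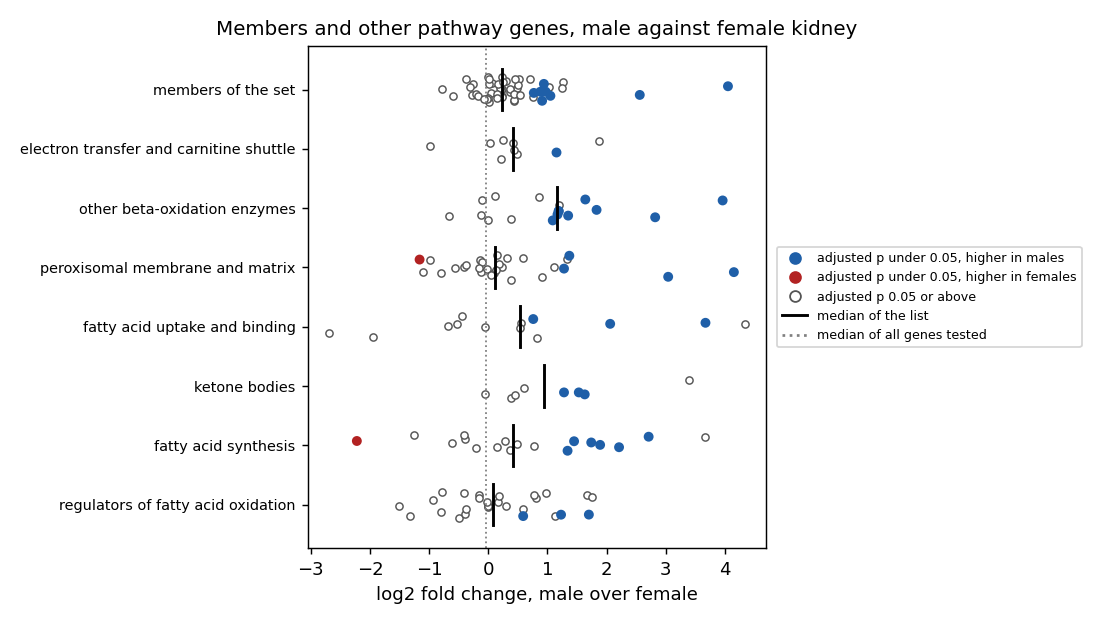
The log2 fold change of male over female is plotted for each tested gene of the member set and of 7 lists of related genes, with filled points for an adjusted p under 0.05, a black bar at each median and a dotted line at the median of all genes, -0.03. The list labelled other beta-oxidation enzymes, which also holds alpha-oxidation and propionyl-CoA genes, has its median furthest to the right, at 1.17. The 2 filled points left of 0 are *far1* and *me1*.

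The list named other beta-oxidation enzymes had the largest share higher in males, 9 of 17 tested (52.9%, beside 7.02% of all genes). None was higher in females. The list also holds genes of alpha-oxidation and of propionyl-CoA, so the share is not that of beta-oxidation alone. On the branched-chain route, *amacr*, the racemase that turns branched chains to the form that can be oxidised, was at 78.9, 58.3, 143 and 71.6 CPM in M1, M2, pkd1M1 and pkd1M4. In F1, F2, F3, F4 and F6 it was at 20.8, 6.51, 12.5, 13.7 and 8.68 CPM, well below the males. Males exceeded females by a log2 fold change of 2.82 (SE 0.37, adjusted p 0.00119). *scp2b*, a counterpart of the thiolase and sterol carrier that cleaves branched chains in mammals, was at 32.7, 278, 887 and 52.3 CPM in those males and at 13.5, 18.1, 15.6, 11.4 and 41.8 CPM in those females. Males differed widely, M1 lay below F6, and the log2 fold change was 3.96 (SE 0.89, adjusted p 0.0156). It was 2.59 without pkd1M1 (adjusted p 0.0448), and the gene did not pass without both libraries named with pkd1. The 4 interrenal markers found, of which none passed the test, were also high in M2 and pkd1M1, with sums of 8.19, 347, 760 and 12.2 CPM in M1, M2, pkd1M1 and pkd1M4. Their sums in females were 48.7 to 199 CPM, and their part in the level of *scp2b* was not tested. *hacl1*, a lyase of alpha-oxidation, was also higher in males (1.64, adjusted p 0.0248), but did not pass without pkd1M4, F1, F2 or F4. *decr2*, a reductase for unsaturated chains in peroxisomes, was higher in males by 1.17 (adjusted p 0.0167). *hsd17b4*, the other bifunctional enzyme of peroxisomes, had a fitted value of -0.13 (adjusted p 0.816), and *phyh*, which begins alpha-oxidation, -0.01. *scp2a*, the duplicate of *scp2b*, had 0.39 (adjusted p 0.448), with overlap between the sexes.

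*hsd17b10*, a mitochondrial dehydrogenase of branched short chains, was at 141, 130, 176 and 132 CPM in M1, M2, pkd1M1 and pkd1M4 and at 46.0, 37.2, 38.2, 46.6 and 36.1 CPM in F1, F2, F3, F4 and F6. Both groups were tight, and the log2 fold change was 1.83 (SE 0.16, adjusted p 0.000261). All 4 tested genes that turn propionyl-CoA, the product of odd and branched chains and of some amino acids, into succinyl-CoA were higher in males. These were *pcca* and *pccb* (1.19 and 1.09), the carboxylase subunits, *mcee* (1.19), the epimerase, and *mut* (1.35), the mutase, with adjusted p-values of 0.00909, 0.0025, 0.0308 and 0.00373. Of these, *mcee* was not past the threshold in 6 of the 9 fits with a library left out.

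**Figure D5:**
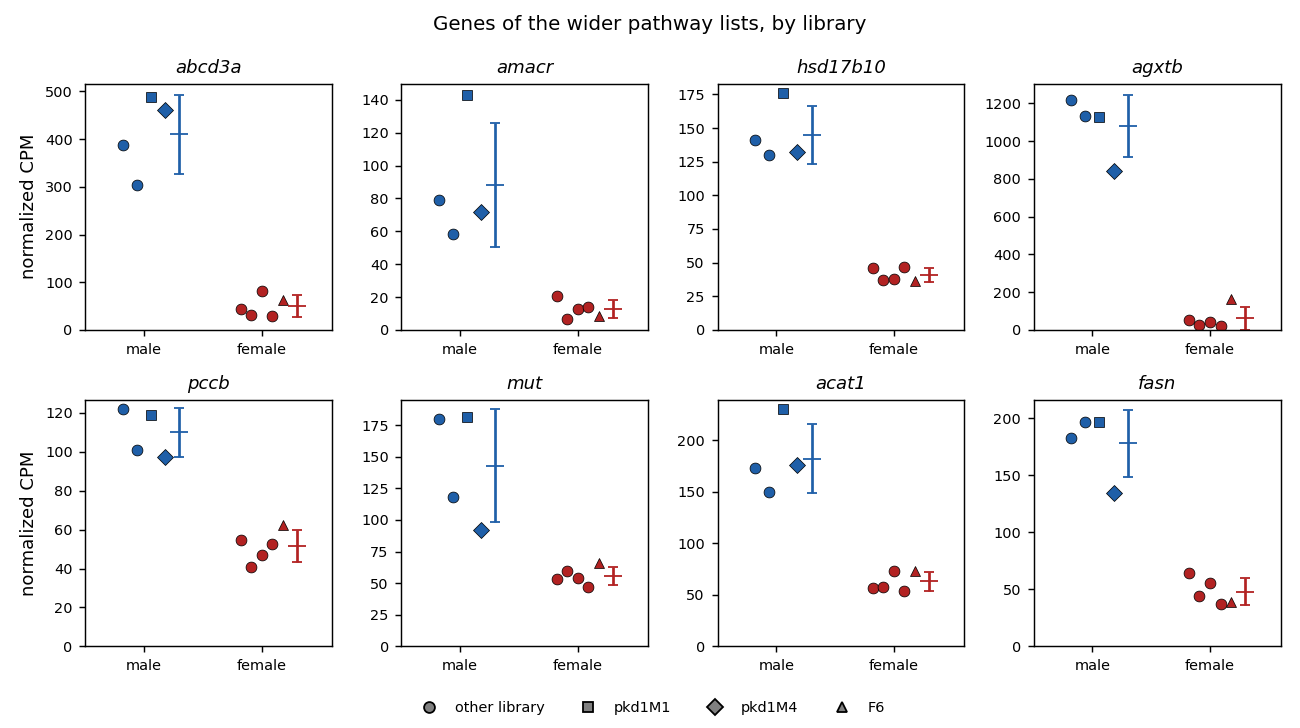
Normalized CPM is plotted for each library in 8 genes of the related lists, chosen after their values were seen, with males in blue, females in red, the mean and SD beside the points and separate symbols for pkd1M1, pkd1M4 and F6. No male point falls into the female range in any panel, and *agxtb* has the widest gap, from 840 CPM in the lowest male to 165 CPM in F6.

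In the list of peroxisomal membrane and matrix proteins 4 of 28 tested genes were higher in males and 1 in females. Together they are 17.9%, beside 13.2% of all genes, and the median log2 fold change of the list was 0.12. *abcd3a*, on chromosome 24 at 31310640 to 31332087, is a counterpart of the transporter that brings long and branched chains into peroxisomes. It was at 388, 303, 489 and 460 CPM in M1, M2, pkd1M1 and pkd1M4 and at 44.5, 31.2, 81.3, 29.1 and 63.5 CPM in F1, F2, F3, F4 and F6. The lowest male was far above the highest female, and the log2 fold change was 3.04 (SE 0.33, adjusted p 0.000491). Its duplicate *abcd3b* had a log2 fold change of 0.58 (adjusted p 0.393), with overlap between the sexes. *agxtb*, an aminotransferase of glyoxylate, was at 1216, 1132, 1126 and 840 CPM in those males and at 50.1, 28.4, 39.4, 20.8 and 165 CPM in those females, with F6 the highest female (log2 fold change 4.15, SE 0.58, adjusted p 0.00154).

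*agxta* (1.37, adjusted p 0.0413) and *hao1* (1.28, adjusted p 0.032), the oxidase that makes glyoxylate, were also higher in males, but in 8 and 7 of the 9 fits with a library left out they did not pass. *far1*, which makes fatty alcohols for ether lipids, was higher in females (-1.16, adjusted p 0.0223), with 7.13 to 14 CPM in males and 19.3 to 36.2 CPM in females, and did not pass without pkd1M1 or F3. *cat*, catalase, which removes the peroxide that the oxidases make, was at 187, 119, 252 and 232 CPM in M1, M2, pkd1M1 and pkd1M4 and at 349, 369, 394, 235 and 606 CPM in F1, F2, F3, F4 and F6. Its fitted value lay on the opposite side from *acox3*, at -0.98, and it missed the threshold (adjusted p 0.0523). In 4 of the 17 alternatives *cat* passed.

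Carnitine and electron transfer genes gave 1 of 9 past the adjusted p (11.1%). Of all genes 13.2% passed in either direction and 7.02% were higher in males. The 1 gene was *slc16a9a*, a counterpart of a carnitine exporter, higher in males (1.14, adjusted p 0.0328). *etfa*, *etfb*, *etfdh* and *slc25a20*, which take the electrons of mitochondrial oxidation and carry acylcarnitine across the inner membrane, had fitted values of 0.25, 0.49, 0.03 and 0.21, none past the test. The 1 fitted value of the list below 0 was that of *crot*, which makes carnitine esters of medium chains in peroxisomes. It was at 23.5, 19.6, 16.6 and 35.5 CPM in M1, M2, pkd1M1 and pkd1M4 and at 41.3, 51.7, 44.4, 26.9 and 70.6 CPM in F1, F2, F3, F4 and F6. Its log2 fold change was -0.98 (SE 0.30, adjusted p 0.0583), and it passed in 4 of the 17 alternatives. Ketone body genes gave 3 of 8 (37.5%), all higher in males, beside 7.02% of all genes higher in males. Among them were *acat1* (1.53, adjusted p 0.000788) and *oxct1a* (1.63, adjusted p 0.0312). *acat1* stayed past the threshold with any 1 library left out, while *oxct1a* did so in 2 of the 9 fits.

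The list of fatty acid synthesis, the opposite process, gave 6 of 18 higher in males and 1 in females, 38.9% together beside 13.2% of all genes. *fasn*, fatty acid synthase, was at 183, 197, 197 and 135 CPM in M1, M2, pkd1M1 and pkd1M4 and at 64.6, 44.0, 55.4, 37.5 and 39.4 CPM in F1, F2, F3, F4 and F6. All males lay above all females (log2 fold change 1.89, SE 0.21, adjusted p 0.000568). *aclya*, which makes its acetyl-CoA from citrate, and *acaca*, which makes malonyl-CoA, an inhibitor of carnitine palmitoyltransferase in mammals, were higher in males by 2.21 (adjusted p 0.000537) and 1.45 on the log2 scale. *acacb*, a relative of *acaca* in the list, had a fitted value of -0.40 (adjusted p 0.409), with overlap between the sexes. *me1*, malic enzyme, was higher in females (-2.22, adjusted p 0.00508). Of the 13 tested genes of uptake and binding 3 (23.1%, beside 7.02% of all genes) were higher in males, *slc27a1a*, *fabp2* and 1 of the 2 genes that carry the symbol *slc27a1b*. The second of these 2 had a fitted value of -2.69 (adjusted p 0.36), with means of 0.208 CPM in males and 1.41 CPM in females. In 5 of the 13 every male lay above every female. The reverse held for 1, *slc27a6*, which did not pass the test (-1.95, adjusted p 0.123).

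Over 28 regulators tested the median log2 fold change was 0.08. Of them 10.7% passed the adjusted p, beside 13.2% of all genes in either direction and 7.02% higher in males. The 3 that passed were all higher in males. These were *esrra* (1.23, adjusted p 0.0244) and *hnf4g* (1.70, adjusted p 0.00667), nuclear receptors of metabolic genes, and *prkaa1* (0.59, adjusted p 0.0393), a catalytic subunit of the energy-sensing kinase AMPK. *hnf4g* alone of these stayed past the threshold with any 1 library left out. *pparaa*, a counterpart of the nuclear receptor that controls peroxisomal and mitochondrial oxidation in mammals, was at 21.1, 25.6, 18.1 and 18.4 CPM in M1, M2, pkd1M1 and pkd1M4 and at 7.49, 4.65, 9.30, 8.04 and 17.9 CPM in F1, F2, F3, F4 and F6. F6 lay just below the lowest male. The log2 fold change was 1.13 (SE 0.35, adjusted p 0.0586), and without F6 the adjusted p was 0.0063. That was the only 1 of the 9 fits with a library left out in which *pparaa* passed. Over the 17 alternatives *pparaa* passed in 3. Its coactivator *ppargc1a* had a log2 fold change of 1.76 (SE 0.55, adjusted p 0.0612), with overlap between the sexes, and passed in 5 of the 17. On the other side, *rxraa*, a counterpart of the receptor that pairs with PPAR receptors, had every female above every male but did not pass the test (log2 fold change -1.33, SE 0.49, adjusted p 0.107). The same held for *sirt5*, a mitochondrial deacylase (-0.80, SE 0.31, adjusted p 0.122).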

How the data were processed

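Per the methods of the study, the authors assigned paired-end reads to zebrafish transcripts with Kallisto and summed them to genes. Per the labels, libraries were made with the TruSeq version 2 kit. The deposited table holds an estimated count for each gene and library, scaled from TPM and not normalized between libraries. All were whole numbers. Coordinates are those of the deposited table, GRCz11 by the methods with Ensembl release 101, while the submitters' processing notes name GRCz10. Whether values were corrected for length was not settled, so levels of different genes were not compared in the results. The choice of members by mean CPM and the sums over genes depend on this unsettled point.

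Columns were matched to samples by sex and number, except pkd1M1, pkd1M4 and F6, matched by sex alone. Genes with low counts were removed with filterByExpr, and libraries were scaled with TMM. Males were tested against females by quasi-likelihood in edgeR 4.0.16 (R 4.3.3), with Benjamini-Hochberg adjustment over 22148 genes. Calls needed an adjusted p under 0.05 and a log2 fold change above 1.5 in either direction. The fit was tested on simulated data. CPM are counts divided by the TMM-scaled library size. Values in every library are given for members past both thresholds, the 3 with the highest mean CPM in each role, and some near the thresholds. They are not given for *pex13* and *pex11g*. Members past the adjusted p alone are also named. Related genes outside this rule (the lists) were named after their values were seen. Members and lists were chosen with earlier results of these data known.

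Alternatives were RLE size factors, DESeq2 1.42.0, dropping the filter or asking for 10 counts throughout, leaving out each library, the replicate number as a block, and fold change limits of none or 1. Treating the libraries named with pkd1 apart was an alternative as well, and fitting the libraries of the block without it was chosen after seeing the data. Promoter and protein sequences were not analysed here. Some genes that enter the counts, medians and sums are not reported here by name or value. Columns of per-sample values left unused numbered 0. Figures were drawn with matplotlib 3.10.9 in Python 3.11.15, with numpy 2.4.6, pandas 2.3.3 and scipy 1.17.1.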

Additional observations from a re-analysis of the deposited data

Results flagged for a closer look

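Each tested member was looked at for a library far from the others of its sex by Dixon's criterion, which chance meets in about 1 of 20 groups. Of 102 groups of 4 or 5 libraries, 10 met it (9.80%). F6 was the library in 6 of these. In females F6 stood above the others at 54.6 CPM for *acaa1* (next highest 43.3 CPM) and at 316 CPM for *acadvl* (next 201 CPM). It also did so at 640 CPM for *acadm* (next 393 CPM) and at 116 CPM for *hadhaa* (next 79.7 CPM). For *cpt1b* it was at 116 CPM (next 37.0 CPM) and for *hadhb* at 252 CPM (next 149 CPM). *pex14* was at 52.8 CPM in F3 (next 33.9 CPM). *pex2* was at 8.27 CPM in F1 (next 3.08 CPM). In males *acadvl* was lowest in pkd1M4 at 186 CPM (next 248 CPM), and *acoxl* was highest in pkd1M1 at 4.79 CPM (next 1.13 CPM).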

How the results depend on the processing

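*acox3* and *ehhadh* passed both thresholds in all 17 alternatives, with log2 fold changes of 3.72 to 4.40 and 2.12 to 2.85. The other 6 members past the adjusted p kept their direction in all 17. They missed the threshold in 2 (*acsl4b*), 4 (*pex19*), 5 (*echs1*), 6 (*pex5*), 9 (*acaa1*) and 10 (*acad8*) of the 17, and in the fit with the replicate block all 6 missed it. With 1 library left out, the median over the members was 0.17 to 0.39, and *cpt1ab* was -0.10 to 0.28. Without the fold change limit 8 of 51 members were called, against 13.2% of all genes in either direction. With a limit of 1 these were 3 of 51 members, against 2286 of 22148 genes in either direction. With 9 leave-one-out fits the genes called over the whole table numbered 1086 to 1707, and those of the related lists 12 to 19. The whole-table count was 2928 without a fold change limit, 2286 at a limit of 1, 637 with a term for libraries named with pkd1 and 635 without those libraries. For the related lists these counts were 31, 29, 8 and 7. DESeq2 called 9 of 51 members at the adjusted p alone, against 18.9% of all genes in either direction.

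Replicate numbers 1 and 2 are shared by the sexes. Deviations of same-numbered libraries had r of 0.033 and -0.031, beside 0.015 and -0.016 for unlike numbers. With 2 pairs this cannot tell whether such libraries share more than a number. With the number as a block, which M1, M2, F1 and F2 allow, 859 genes were called, 11 of the related lists and 2 members, with *cpt1aa* at -0.02. Without the block the same 4 libraries gave 355 genes and 5 of the related lists. The planned comparisons of promoter motifs and carboxyl-terminal signals were not run. At 4 against 5 libraries with wide intervals, a member that missed the threshold is not shown to be equal between the sexes.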
